A study of Homo sapiens with 12 samples.

Results

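IL15, IL15RA, IL7, IL18BP and TNFSF13B are 5 immune cytokine genes or genes of cytokine-binding proteins, taken by symbol from the 60099 genes of the deposited table, and all 5 had a row. They were read in HNSCC (squamous cell carcinoma of the head and neck) cells given interferon alpha (IFNα), a type I interferon. The samples were Cal27 and HN30, established HNSCC lines that carry no added transgene, either untreated or exposed to 20 or 200 ng/ml IFNα for 24 h. There were 12 libraries, 2 for each of 3 doses in each of 2 line sets. Libraries A and D had no IFNα, those lettered B and E had 20 ng/ml and those lettered C and F had 200 ng/ml, and the number after a letter is the replicate. The sets go by their letters, A-C and D-F, because the labels do not say which letters are Cal27 and which are HN30. Nothing in the labels says that replicates came from separate cultures, so the p-values measure only the spread between these libraries, which may be technical.

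IL15 is a cytokine of the common gamma chain family that keeps natural killer cells and memory CD8+ T cells alive. It works in an unusual way, since the cell that makes it also makes IL15RA, a high-affinity receptor chain that carries IL15 to the surface and presents it to a neighbouring lymphocyte bearing IL2RB and IL2RG. IL7 is the T cell survival factor of the same family, IL18BP is a secreted decoy that binds IL18 and blocks it, and TNFSF13B encodes BAFF, a B cell survival factor of the TNF superfamily. Interferons reach their target genes through STAT and IRF factors, which bind the interferon-stimulated response element (core GAAANNGAAA) or the gamma-activated sequence (TTCNNNGAA).

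Start-site windows in RefSeq (GRCh38.p14, from 250 bases before to 50 after an annotated start) were found for IL15RA, IL18BP and TNFSF13B, with 4, 4 and 2 windows. The core GAAANNGAAA, on either strand, was in 1 of the 4 IL18BP windows and in both overlapping TNFSF13B windows, and in none of the 4 IL15RA windows. It was present in 3.57% of all 34943 windows. A form lacking the last A, GAAANNGAA, which every full core also contains and which was added after the IL15RA windows had been read, was in 2 overlapping IL15RA windows and in 8.10% of all windows. The 30 bases around each match are shown, written on the strand of the gene with the match in capitals.
IL18BP, chr11:71999540-71999569, plus strand: gttaaaaagtGAAAGTGAAAtagagggtcg
TNFSF13B, chr13:108269637-108269666, plus strand: tacaaaaactGAAAGTGAAAtgaggaagac
IL15RA, chr10:5977586-5977615, minus strand: aagcaaaagcGAAAGCGAAtgcgactggcg
The IL18BP match began 67 bases before the start at position 71999617. It fell in an exon of 5 of the 14 GENCODE transcripts and between the ends of 11 of them. The TNFSF13B match lay 71 bases before the start at 108269718 and 18 bases after the start at 108269629, and it fell in an exon of 1 of the 6 GENCODE transcripts. The IL15RA match lay 62 bases before the start at 5977543 and 6 bases after the start at 5977611, and it fell in an exon of 5 of the 22 transcripts.
The gamma-activated sequence TTCNNNGAA, which reads the same on both strands, occurred in 1 IL15RA window, at 5978165 to 5978173 on chromosome 10, and at 2 places in 1 IL18BP window.
IL15RA, chr10:5978154-5978183, minus strand: gcagcaggaaTTCGGCGAAgtggcggagct
IL18BP, chr11:71999570-71999599, plus strand: gggcagtgctTTCCCAGAAggattgctcgg
IL18BP, chr11:71999600-71999629, plus strand: catcctgcccTTCCCAGAAgcagctctggt
This sequence was in 7.66% of all windows and in neither TNFSF13B window. A match of letters is not a measured binding site.

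The total estimated count per library was between 10517448 and 16056734. At that depth 3 counts, taken here as the floor of detection, equal 0.187 to 0.285 CPM (counts scaled to library size), which covers counting error only. The type I interferon response was present in the treated libraries. At either dose 21 of 22 listed interferon-stimulated genes rose at least 2-fold with an adjusted p of at most 0.05. Among all genes tested, 1.58% did so at 200 ng/ml and 0.963% at 20 ng/ml. The median log2 fold change of the 22 was 2.95 with 200 ng/ml. The cells carried the labelled epithelial identity. All 8 squamous epithelial markers averaged at least 1 TPM (transcripts scaled for length and depth), and all 7 lymphoid markers, CD3E, CD2, MS4A1 and NKG7 at 0 among them, had at most 3 counts in any library. Of 6 myeloid markers, 2 averaged at least 1 TPM (CSF1R and CD14), and the summed myeloid level was 3.33 to 5.66 TPM in controls, 4.62 to 7.22 TPM at 20 ng/ml and 2.98 to 4.35 TPM at 200 ng/ml. Of 5 stromal markers, 1 averaged at least 1 TPM (COL1A1), and their sum was 8.57 to 15.4 TPM in controls, 9.90 to 14.1 TPM at 20 ng/ml and 5.50 to 15.2 TPM at 200 ng/ml. The part of these markers in the results was not tested.

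In TPM, IL15RA was the most abundant of the 5 transcripts, with a mean of 27.8 ± 11.5 TPM (SD, n = 12). IL18BP averaged 16.6 ± 3.34 TPM, IL15 3.75 ± 2.07 TPM, IL7 2.03 ± 0.757 TPM and TNFSF13B 0.365 ± 0.248 TPM over the same 12 libraries. IL15RA exceeded IL18BP in 11 of 12 libraries, IL18BP exceeded IL15 in 12 of 12, and IL7 exceeded TNFSF13B in 12 of 12. IL15 and IL7 did not keep one order, IL15 being the higher in 6 of 6 libraries of set D-F but in 2 of 6 of set A-C. The receptor chain was therefore present at a higher level than its ligand in every library, and the ratio of IL15RA to IL15 TPM ran from 6.82 to 16.0 in set A-C and from 5.03 to 10.04 in set D-F. The decoy stood below its target: the ratio of IL18BP to IL18 TPM ran from 0.424 to 0.820 in set A-C and from 0.236 to 0.403 in set D-F.

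**Figure D1:**
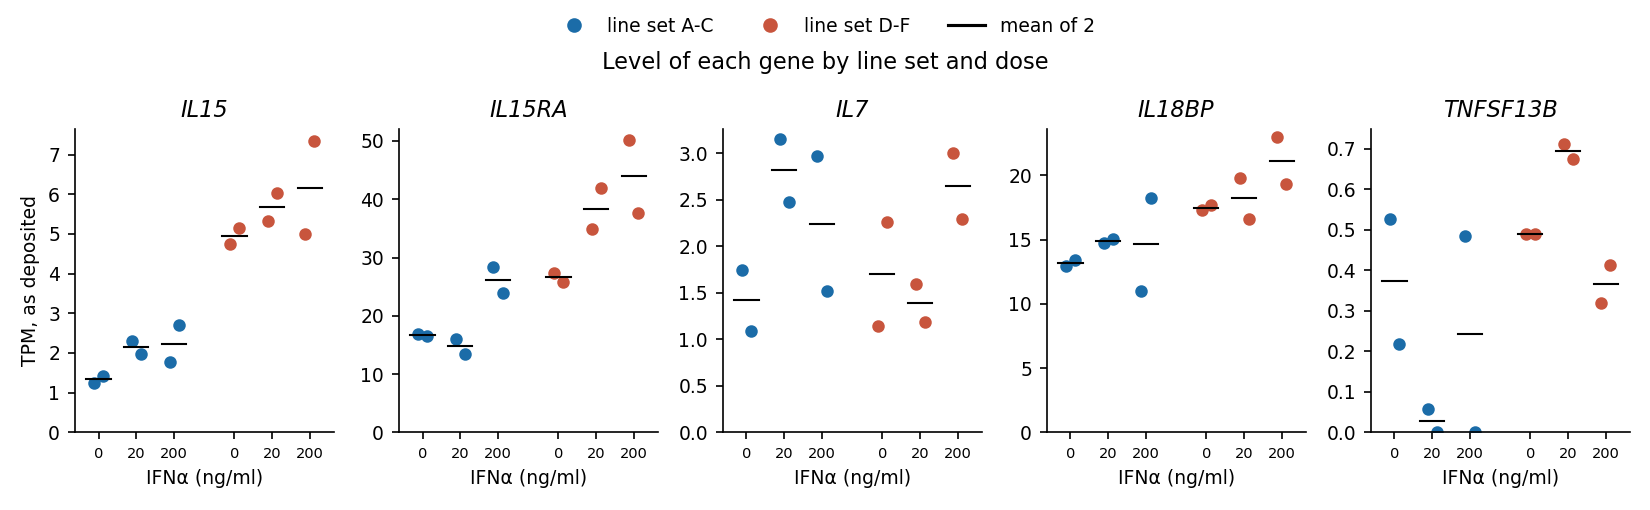
Deposited TPM of each gene (vertical axis, starting at 0) against the IFNα dose in ng/ml, with 1 point per library, set A-C in blue, set D-F in red and a bar at the mean of 2 replicates. IL15RA at 200 ng/ml lies above the controls of its own set in all 4 libraries, and IL15 is lower in set A-C (1.24 to 2.70 TPM) than in set D-F (4.75 to 7.33 TPM) throughout.

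Of the 4 members tested, IL15RA was the only one whose difference at 200 ng/ml passed the adjusted p threshold, and it did so with a change smaller than 2-fold. Its locus is chr10:5943639-5978187 on the minus strand of GRCh38 (ENSG00000134470). In set A-C the controls read 16.9 and 16.6 TPM and the libraries at 200 ng/ml read 28.4 and 23.9 TPM. In set D-F the controls read 27.4 and 25.9 TPM against 50.2 and 37.7 TPM at 200 ng/ml. All 4 treated libraries stood above both controls of their set. In estimated counts the 4 controls held 148, 184, 279 and 252, and the 4 libraries at 200 ng/ml held 212, 173, 376 and 308, from smaller totals. With both sets in one edgeR quasi-likelihood fit, IL15RA was 1.58-fold higher at 200 ng/ml than in controls (95% confidence interval 1.33 to 1.87, log2 fold change 0.66 ± 0.11 SE, Benjamini-Hochberg adjusted p = 0.00531). A gene was called when it changed at least 2-fold with an adjusted p of at most 0.05, and by that rule 0 of the 4 members tested were called higher at 200 ng/ml, against 1.58% of the 19944 genes tested. By the adjusted p alone, IL15RA was 1 of 4 members higher, against 4.98% of all genes. Fitted on dose without the line set, IL15RA had the same size of change (log2 fold change 0.67) but an adjusted p of 0.881.

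Within each set at 200 ng/ml IL15RA kept the direction, but its adjusted p depended on the fit. The log2 fold change was 0.63 ± 0.16 (SE) in set A-C (edgeR adjusted p = 0.0428) and 0.69 ± 0.15 in set D-F (edgeR adjusted p = 0.0284), where 3.58% and 3.44% of all genes were higher by the adjusted p alone. In set A-C the adjusted p was above 0.05 in 17 of 21 other fits, among them those without A1 (0.133), A2 (0.184), C1 (0.131) or C2 (0.115). In set D-F it was above 0.05 in 9 of 21, among them those without D1 (0.0943), D2 (0.170) or F1 (0.201). With the replicate block the edgeR adjusted p was 0.0850 in set A-C and 0.0646 in set D-F. Over both sets it was above 0.05 in 1 of 22 other fits, the one on dose without the line set. The responses of the sets at 200 ng/ml differed by 0.06 on the log2 scale, with a 95% interval from -0.43 to 0.55, and this difference was not called (edgeR adjusted p = 0.949). In that test 0 of 4 members were called, against 0.998% of all genes in either direction.

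At 20 ng/ml the sets read differently for IL15RA. In set A-C the libraries at 20 ng/ml held 16.0 and 13.5 TPM, both below the controls, whereas in set D-F they held 35.0 and 41.9 TPM, both above the controls. The log2 fold change was -0.08 ± 0.16 (SE) in set A-C and 0.60 ± 0.15 in set D-F, with edgeR adjusted p-values of 0.937 and 0.0732. By the adjusted p alone, 0.913% and 2.15% of all genes were higher in those comparisons. The difference between the sets, 0.67 on the log2 scale with a 95% interval from 0.18 to 1.17, had an unadjusted p of 0.0125 in edgeR and an adjusted p of 0.306, so it was not called. That difference was called for 0 of 4 members and 0.231% of all genes in either direction. Over both sets IL15RA was 1.20-fold higher at 20 ng/ml (95% interval 1.01 to 1.42, edgeR adjusted p = 0.266). IL15RA stood 0.40 ± 0.11 (SE) higher on the log2 scale at 200 than at 20 ng/ml (edgeR adjusted p = 0.307), a comparison in which 0 of 4 members and 0.0451% of all genes were called.

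IL15, the ligand (ENSG00000164136, chr4:141636599-141733987, plus strand), showed no difference that passed the test at either dose. In set A-C its level was 1.24 and 1.43 TPM in controls, 2.29 and 1.98 TPM at 20 ng/ml, and 1.77 and 2.70 TPM at 200 ng/ml. Both doses lay above the controls of that set. In set D-F it was 4.75 and 5.14 TPM in controls, 5.32 and 6.04 TPM at 20 ng/ml, and 5.00 and 7.33 TPM at 200 ng/ml, so that in TPM the higher dose overlapped the controls and the lower did not. In CPM, the scale of the tested counts, the order was the other way round, with 11.1 to 11.6 in the D controls, 3.94 to 14.2 at 20 ng/ml and 13.7 to 15.3 at 200 ng/ml. The fitted change of the counts at 200 ng/ml was 1.61-fold with a 95% interval from 0.856 to 3.02 (edgeR adjusted p = 0.351), and at 20 ng/ml it was 1.303-fold with an interval from 0.695 to 2.44 (edgeR adjusted p = 0.727). These intervals hold both no change and a 2-fold rise. Within the sets, the log2 fold change at 200 ng/ml was 1.02 in A-C and 0.35 in D-F (edgeR adjusted p = 0.361 and 0.825). At 20 ng/ml it was 1.11 in A-C and -0.34 in D-F (edgeR adjusted p = 0.51 and 0.871). That difference between the sets, -1.45, was not called (edgeR adjusted p = 0.575). Over both sets the log2 fold change at 200 ng/ml was 0.68 with all libraries, 0.38 without A1 and 1.26 without A2. At 20 ng/ml, where 0 of 4 members were called higher, 0.963% of all genes were called and 2.33% were higher by the adjusted p alone.

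**Figure D2:**
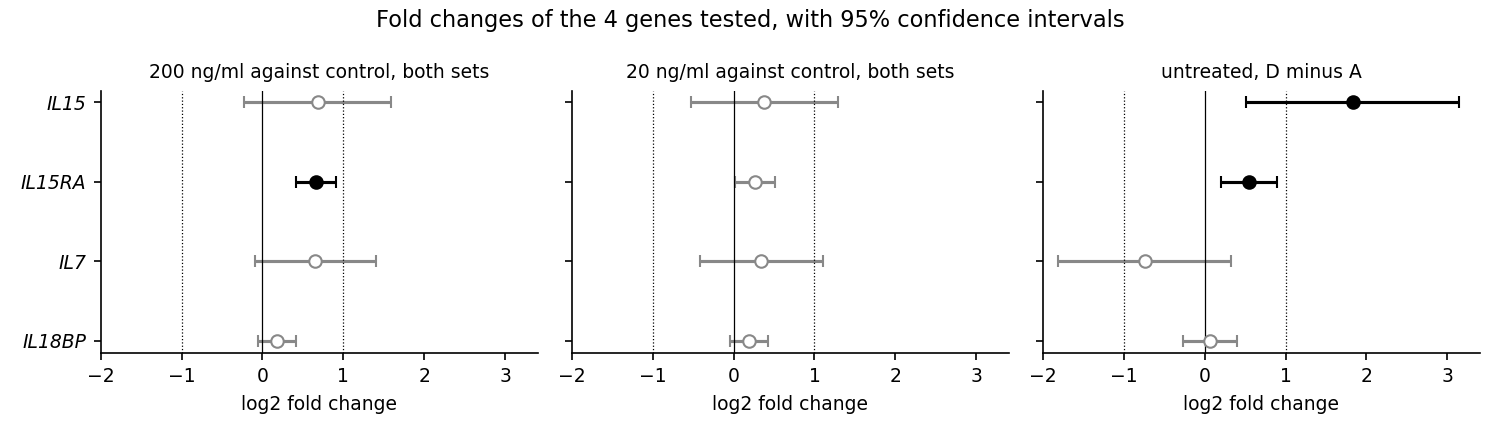
Log2 fold change (horizontal axis) with its 95% confidence interval for the 4 genes tested, at 200 ng/ml against control, at 20 ng/ml against control, and between untreated D and A libraries. Filled black points had an adjusted p of at most 0.05 and dotted lines mark 2-fold, and IL15 has the widest interval at 200 ng/ml (-0.22 to 1.59) while that of IL15RA (0.41 to 0.90) stays below 2-fold.

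IL15 counts moved apart from TPM in 2 libraries. The estimated counts were 17 and 72 in the A controls, 89 and 84 in B, 63 and 66 in C, 168 and 165 in D, 159 and 48 in E, and 177 and 162 in F. A1 and E2 were low in counts but not in TPM. The transcript IL15-204, a protein-coding model of 7 exons and 6026 bases that starts at 141714657 inside the locus, held 50.4% of the mean IL15 TPM and between 56 and 166 counts in 10 libraries, and it was listed at 0 in A1 and E2. In E2 the gene's 6.04 TPM lay in other, shorter models, with IL15-202 (1447 bases) at its maximum of 2.18 TPM. Whether the division of reads between transcripts produced the low gene counts was not tested. Without A1 and E2, a choice made after their values were seen, the IL15 log2 fold change at 200 against 20 ng/ml was -0.02, where all 12 libraries gave 0.30.

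Line and letter go together, so a line difference between untreated libraries cannot be told apart from handling that followed the letters. IL15 also differed between the untreated line sets. It was 3.56-fold higher in D than in A (95% interval 1.43 to 8.85, log2 fold change 1.83 ± 0.59 SE, edgeR adjusted p = 0.0281), and both D controls stood above both A controls in TPM and in counts. In this comparison 1 of 4 members was called higher, against 15.7% of all genes, the lines differing at a large share of genes. The call was lost when a control library was left out, with a log2 fold change of 1.23 (edgeR adjusted p = 0.145) without A1, 1.80 (adjusted p = 0.0810) without D1 and 1.86 (adjusted p = 0.0731) without D2, while it was 2.98 (adjusted p = 0.0114) without A2. On deposited TPM, limma on log2(TPM + 0.1) gave 1.82 with an adjusted p of 0.00140. IL15RA was 1.46-fold higher in D than in A (95% interval 1.15 to 1.86, edgeR adjusted p = 0.0161), below 2-fold. That adjusted p was 0.0634 without A1, 0.0692 without A2, 0.102 without D1 and 0.0541 with the replicate block. Among all genes, 24.1% were higher in D than in A by the adjusted p alone. IL7 and IL18BP had log2 differences of -0.74 ± 0.48 and 0.07 ± 0.15 (SE), with edgeR adjusted p-values of 0.236 and 0.731.

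IL7 (ENSG00000104432) was near the lower end of what these libraries measure. It held 9 to 39 estimated counts per library and 1.09 to 3.15 TPM. In set A-C it read 1.75 and 1.09 TPM in controls, 3.15 and 2.48 TPM at 20 ng/ml, and 2.96 and 1.52 TPM at 200 ng/ml. In set D-F it read 1.14 and 2.26 TPM in controls, 1.59 and 1.18 TPM at 20 ng/ml, and 3.00 and 2.29 TPM at 200 ng/ml. Treated and control libraries overlapped at 200 ng/ml in set A-C and at 20 ng/ml in set D-F. The fitted change was 1.57-fold at 200 ng/ml (95% interval 0.937 to 2.64, edgeR adjusted p = 0.272) and 1.27-fold at 20 ng/ml (0.751 to 2.15, adjusted p = 0.699). An increase of 2-fold was within both intervals. ZC2HC1A, a gene on the opposite strand that overlaps IL7 by 44023 bases, averaged 5.47 TPM and had a log2 fold change of 0.18 ± 0.24 (SE) at 200 ng/ml. ZC2HC1A ends at 78719765, and the 4 IL7 models with at least 5% of the mean TPM lie at 78732772 or higher, outside that overlap. The libraries kept strand, but whether counting used it is not given in the sources used here. The part of ZC2HC1A reads in the IL7 counts was not tested.

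IL18BP (ENSG00000137496, chr11:71998541-72005715, plus strand) was measured with the most counts, 271 to 460 per library, and had the narrowest intervals. In set A-C it read 13.0 and 13.4 TPM in controls, 14.7 and 15.1 TPM at 20 ng/ml, and 11.03 and 18.2 TPM at 200 ng/ml. In set D-F it read 17.3 and 17.7 TPM in controls, 19.8 and 16.6 TPM at 20 ng/ml, and 23.0 and 19.3 TPM at 200 ng/ml. The replicates at 200 ng/ml in set A-C lay on either side of the controls. IL18BP was 1.13-fold higher at 200 ng/ml (95% interval 0.960 to 1.33, edgeR adjusted p = 0.352) and 1.14-fold higher at 20 ng/ml (0.968 to 1.34, adjusted p = 0.416). Neither difference passed the test, and a change of 2-fold was outside both intervals. The last 2852 bases of the locus overlap NUMA1, a mitotic spindle gene on the opposite strand at 200 TPM on average, which had a log2 fold change of -0.19 ± 0.08 (SE) at 200 ng/ml (edgeR adjusted p = 0.206). IL18BP-209, the model with 46.5% of the mean IL18BP TPM and 134 to 378 counts per library, reaches into this overlap. It ends at 72003753, and NUMA1 begins at 72002864. Reads of both genes cannot be told apart there unless strand was used in counting. The part of NUMA1 reads in the IL18BP counts and intervals was not tested.

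TNFSF13B (ENSG00000102524, chr13:108251240-108308484, plus strand) was close to the floor of detection. It did not pass the count filter, so it was not tested in the main fit. Without the filter its log2 fold change was 0.72 at 200 ng/ml (edgeR adjusted p = 0.927) and -1.37 at 20 ng/ml (edgeR adjusted p = 0.806). Its estimated counts were 4 and 6 in A, 2 and 0 in B, 10 and 0 in C, 6 and 2 in D, 2 and 2 in E, and 6 and 8 in F. Summed over 4 libraries it had 18 counts in controls, 6 at 20 ng/ml and 24 at 200 ng/ml. Mean TPM had another order, with 0.431 in controls, 0.361 at 20 ng/ml and 0.304 at 200 ng/ml. No level exceeded 0.712 TPM, and no difference was detectable at this depth. Of its 6 transcripts, 2 had any signal. TNFSF13B-202, a protein-coding model, held 0 to 10 counts, and TNFSF13B-204, a short processed transcript, held 0 to 2.

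Most of the loci were divided over many transcript models. IL15RA has 22 models, of which 20 had signal in some library and 3 in every library. IL15RA-212, a protein-coding model of 5 exons, was the most abundant with 18.4% of the mean TPM, and its share of the gene ran from 7.94% to 31.0%. IL15RA-206 followed with 16.1% and IL15RA-204 with 12.4%. IL15RA-206 was listed at 0 in 5 libraries, namely the controls A1, A2, D1 and D2, and C2. It read 3.24 to 14.9 TPM in the libraries at 20 ng/ml, 5.21 TPM in C1, 0.12 TPM in F1 and 10.9 TPM in F2. IL15RA-204 held 26.4% to 35.4% of the gene in controls. It held at most 0.601% in B1, C1, E1, E2 and F1, but 16.0% in B2, 41.0% in C2 and 6.92% in F2. Whether the shares of these models differed with treatment was not tested. IL15 has 8 models, all with signal somewhere and 0 of them with signal in every library. In IL7, IL7-201 held 42.8% of the mean TPM, IL7-208, a retained-intron model, held 30.3%, and IL7-207, a model marked for nonsense-mediated decay, was above 0 in B1 alone. In IL18BP, IL18BP-209 held 46.5% and IL18BP-207 24.99%, and IL18BP-207 was listed at 0 in C1 and E2.

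**Figure D3:**
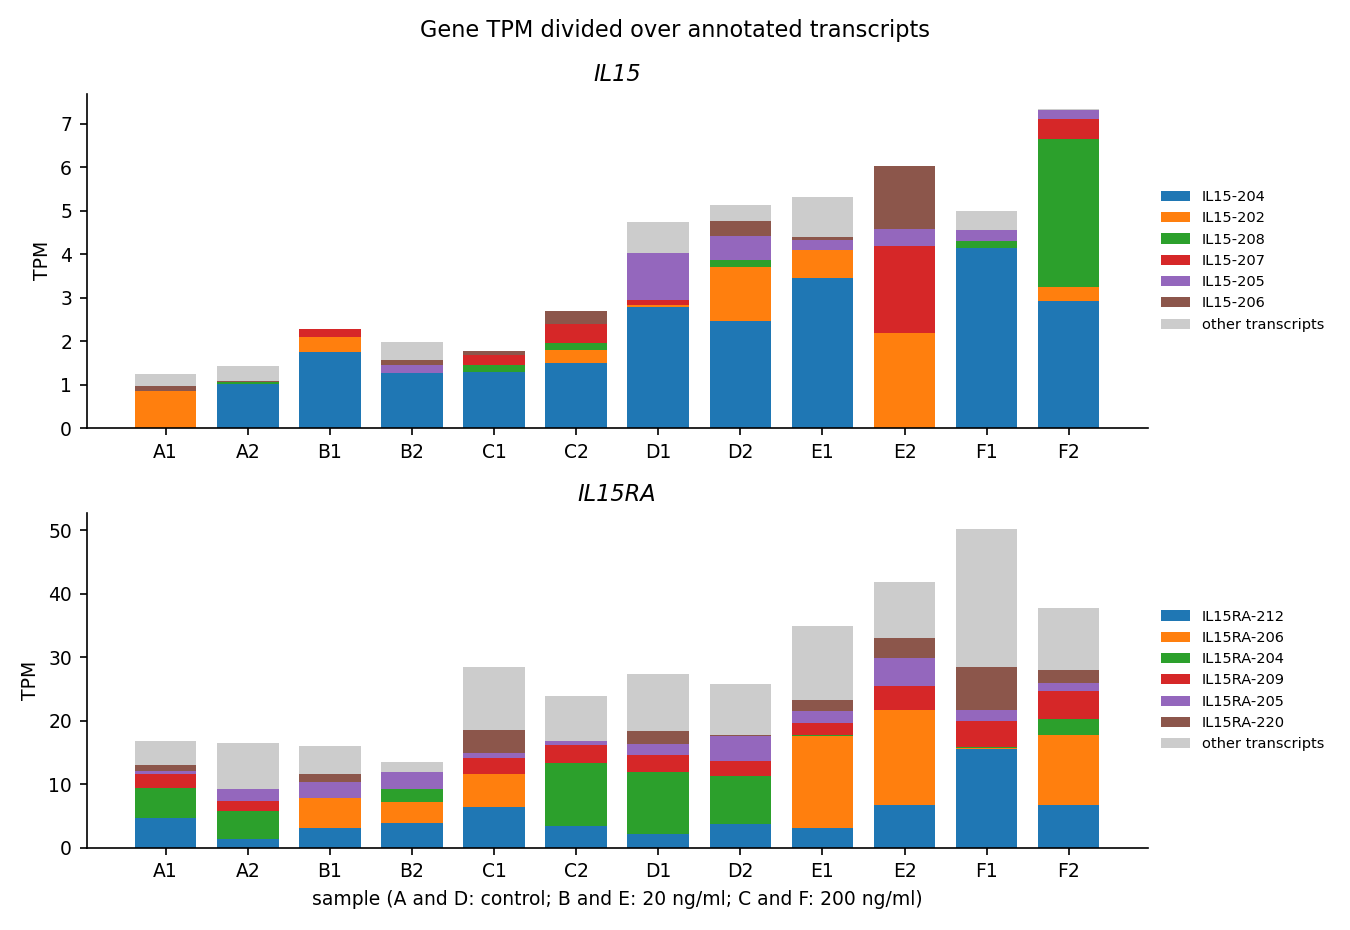
TPM of IL15 and IL15RA (vertical axes) in each of the 12 libraries, divided over the annotated transcripts that hold at least 5% of the gene's mean TPM, with the other transcripts in grey. IL15-204 is missing from A1 and E2, and no IL15RA model holds a steady share (IL15RA-212 ranges from 7.94% to 31.0%).

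No difference with treatment in the share of the most abundant model passed the test in the 4 members tested. Shares were compared between 8 treated and 4 control libraries by an exact two-sided permutation test that exchanged doses within line sets (225 arrangements, smallest possible p 0.00444). The share of IL15RA-212 was 14.7% ± 9.12 in controls and 20.04% ± 7.38 in treated libraries (SD, exact permutation p = 0.298). IL15-204 held 44.6% ± 31.3 and 57.3% ± 26.7 (exact permutation p = 0.520), IL7-201 held 30.5% ± 27.6 and 52.1% ± 28.6 (exact permutation p = 0.231), and IL18BP-209 held 43.5% ± 7.11 and 49.8% ± 16.9 (exact permutation p = 0.547). Adjusted over the 4 tests, every p was 0.547. The spread within a group was as large as the differences, so a shift of several percentage points was not detectable.

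The receivers of IL15 were scarcely present in these cells. IL2RB, the shared beta chain, had at most 8 counts and IL2RG, the common gamma chain, at most 6 in any library, and neither they nor IL2RA and CRLF2 passed the filter. IL7R, the IL7 receptor chain, was abundant, at 35.3 to 64.4 TPM in controls, 54.0 to 84.5 TPM at 20 ng/ml and 67.7 to 88.8 TPM at 200 ng/ml. It was 1.56-fold higher at 200 ng/ml (log2 fold change 0.64 ± 0.06 SE, edgeR adjusted p = 0.000142), below the 2-fold minimum. Of 10 genes listed for the IL15 and IL7 receptor chains and their signal path, 6 were tested, 0 were called in either direction, against 2.14% of all genes at 200 ng/ml and 1.15% at 20 ng/ml, and the median log2 fold change at 200 ng/ml was 0.05, where the median of all genes was -0.01. Of the other common gamma chain cytokines and TSLP, IL2, IL4, IL9 and IL21 had 0 counts in every library, which allows up to 3 counts, and TSLP was tested and not called.

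In the IL18 path, IL18 itself, the inflammatory cytokine that IL18BP binds, had changes of opposite sign in the sets, neither of which passed the test. In set A-C it read 24.4 and 16.4 TPM in controls and 26.02 and 34.9 TPM at 200 ng/ml (log2 fold change 0.62 ± 0.18 SE, edgeR adjusted p = 0.0777). In set D-F it read 73.0 and 68.2 TPM in controls and 57.0 and 51.8 TPM at 200 ng/ml (-0.48 ± 0.18 SE, adjusted p = 0.171). The sets differed by -1.09 on the log2 scale (edgeR adjusted p = 0.0645), and the value over both sets was 0.07 ± 0.13 (SE). Over both sets, 3 of the 9 genes tested were higher by the adjusted p alone and below 2-fold, against 4.98% of all genes. CASP1, the protease that matures IL18, was 1.87-fold higher (edgeR adjusted p = 0.000207), at 1.504-fold in set A-C (adjusted p = 0.0226) and 2.33-fold in set D-F (adjusted p = 0.000418). IL18R1, the receptor chain, was 1.81-fold higher (edgeR adjusted p = 0.0273). It was 2.68-fold higher in set D-F (adjusted p = 0.0208), where controls read 4.08 and 1.02 TPM, far apart, against 5.49 and 7.09 TPM at 200 ng/ml. In set A-C it was 1.23-fold higher (adjusted p = 0.595), and 7.63 and 3.47 TPM at 200 ng/ml lay on either side of 5.83 and 6.32 TPM in controls. CASP4, an inflammatory caspase, was 1.29-fold higher (edgeR adjusted p = 0.0364), at 1.52-fold in set A-C (adjusted p = 0.0255) and 1.09-fold in set D-F (adjusted p = 0.704). CASP1 and IL18R1 were thus called in set D-F, where 1.67% of all genes were called higher. None of these 3 genes was called for the difference between the sets. Over both sets 0 of the 9 tested of 10 listed genes were called in either direction, against 2.14% of all genes at 200 ng/ml and 1.15% at 20 ng/ml, and the median log2 fold change at 200 ng/ml was 0.36.

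In the BAFF and APRIL path, TNFSF13 encodes APRIL, a relative of BAFF. In set A-C TNFSF13 read 7.28 and 7.17 TPM in controls and 11.8 and 17.4 TPM at 200 ng/ml (2.24-fold, edgeR adjusted p = 0.0764). In set D-F it read 3.11 and 2.96 TPM in controls and 5.05 and 2.35 TPM at 200 ng/ml (1.28-fold, edgeR adjusted p = 0.698). Over both sets its log2 fold change was 0.76 ± 0.25 (SE, edgeR adjusted p = 0.0973). TNFRSF13B and TNFRSF17, receptors of the mature B cell, had 0 counts in every library. TNFRSF13C, the BAFF receptor, had 5 to 41 counts and a log2 fold change of -0.89 ± 0.30 (SE, edgeR adjusted p = 0.104). Of 11 genes 9 were tested, and 0 were called at 200 ng/ml, against 2.14% of all genes in either direction. TNFSF12, named here after its values were seen, was the 1 gene called higher at 20 ng/ml, against 0.963% of all genes. In set A-C it was at 0 in both controls and at 1.03 and 0.861 TPM at 20 ng/ml, and in set D-F it read 8.13 and 10.48 TPM in controls and 10.03 and 7.59 TPM at 20 ng/ml, so the call stood over a group at 0 and no fold is given.

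Among other ligands of the TNF superfamily, TNFSF10, which encodes the death ligand TRAIL, rose 7.53-fold at 200 ng/ml (log2 fold change 2.91 ± 0.26 SE, edgeR adjusted p = 0.000108). It read 11.4 to 36.4 TPM in controls and 107 to 191 TPM at 200 ng/ml, with no overlap. Over both sets it was the 1 gene called among 8 tested of 15 listed, against 1.58% of all genes called higher, and the median log2 fold change of the 8 was -0.17. TNFSF15, named after its values were seen, was called lower in set A-C (0.459-fold, edgeR adjusted p = 0.0166), where 0.767% of all genes were called lower. It was also called for the difference between the sets (log2 difference 2.08, edgeR adjusted p = 0.0227), against 0.998% of all genes in either direction. In TPM set A-C read 3.11 and 3.09 in controls and 2.76 and 2.82 at 200 ng/ml. Set D-F was low throughout, at 0.276 to 0.719 TPM, with 0.48 and 0.48 TPM in controls and 0.56 and 0.47 TPM at 200 ng/ml. Changes of the size fitted to the TNFSF15 counts were thus not seen in TPM in either set. TNFSF13B, of the same superfamily, had no more than 10 counts in any library.

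**Figure D4:**
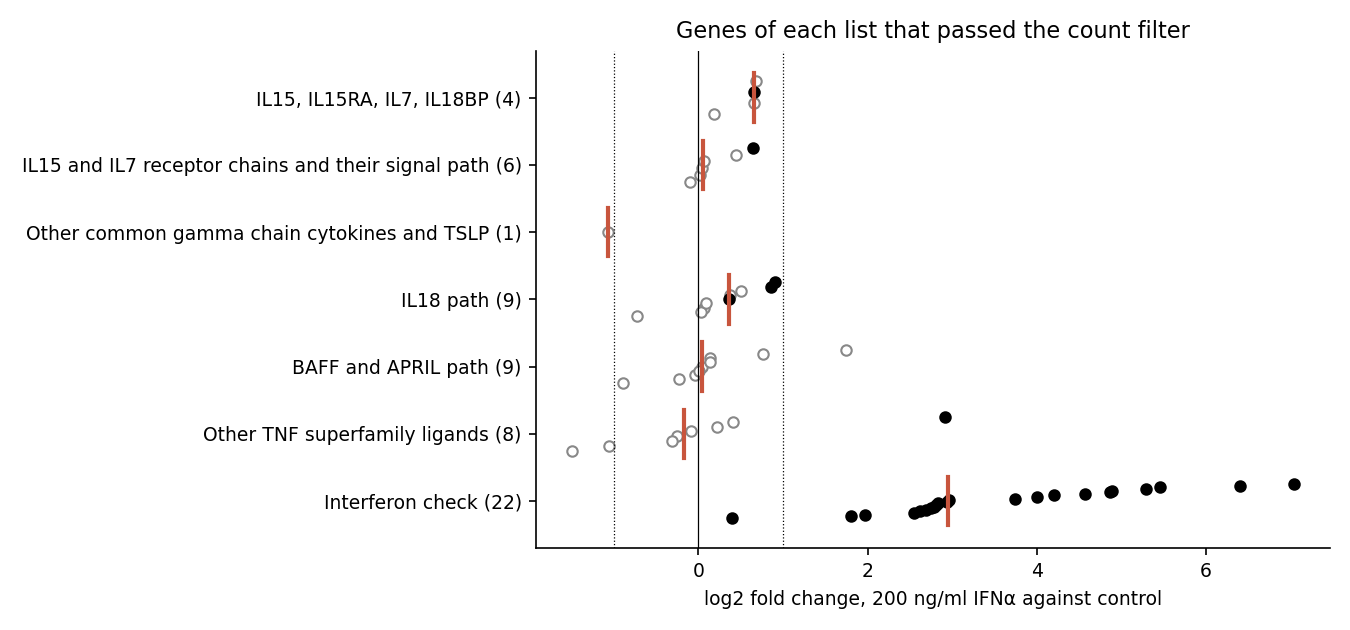
Log2 fold change at 200 ng/ml IFNα against control (horizontal axis) of every gene that passed the count filter, by list, with the number of genes in brackets, filled points at an adjusted p of at most 0.05, dotted lines at 2-fold and a red bar at the median. The 4 members tested lie between 0.18 and 0.68, below 21 of the 22 interferon-stimulated genes, whose median is 2.95.

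The genes whose TPM pattern over the 12 libraries was most like that of each member were listed by Pearson's r of log2(TPM + 0.1), as a description, since the libraries share lines and doses. For IL15 they were GLI3 (r = 0.983), ANO1 (r = 0.982) and SLMAP (r = 0.982), which were 1.27, 0.96 and 0.65 higher in D than in A on the log2 scale. For IL15RA they were UPF2 (r = 0.971), SEPT7P2 (r = 0.948) and an unnamed locus assembled from the reads (r = 0.946). The 3 genes had log2 fold changes of 0.45, 0.41 and 0.19 at 200 ng/ml. For IL18BP they were MTHFD2L (r = 0.941), PRR5L (r = 0.926) and C10orf95 (r = 0.917). For IL7, whose counts were few, likeness was weaker, with CEP97 (r = 0.863), SNORA52 (r = 0.821) and AC245060.5 (r = 0.819).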

How the data were processed

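RNA was depleted of rRNA, made into strand-keeping libraries and sequenced on a HiSeq X instrument. The submitters' processing notes name Trimmomatic 0.36, HISAT2 2.1.0, StringTie 1.3.3b and GRCh38.p10, and the strand setting of the counting is not given in the sources used here. The authors deposited estimated counts in whole numbers, not normalized, with TPM and FPKM values that the authors scaled for length and depth. FPKM was not used.

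Counts were fitted with edgeR 4.0.16 in R 4.3.3 (filterByExpr, TMM, quasi-likelihood test, Benjamini-Hochberg adjustment over 19944 genes) in 6 groups of line set and dose. DESeq2 1.42.0 and limma 3.58.1 were alternatives. Intervals are 95%. Transcript models came from GENCODE 29 and start-site windows from RefSeq. Scripts were tested on simulated data. Tables and figures used pandas 2.3.3, matplotlib 3.10.9 and numpy 2.4.6 in Python 3.11.15.

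The members and lists were chosen with earlier results of these data known. All 5 members are named, with listed genes called at 200 ng/ml, IL2RB, IL2RG, IL7R, IL18, TNFSF13, the 3 BAFF receptors, the 3 genes most like each tested member, and transcripts with at least 5% of a gene's mean TPM. Genes of the lists that passed the adjusted p alone were named after their values were seen. Replicates differed by more than sampling noise in every group (chi-square per degree of freedom 11.7 to 16.4).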

Additional observations from a re-analysis of the deposited data

How the results depend on the processing

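The number of members called at 200 ng/ml was 0 under every alternative that kept the 2-fold minimum, and 1 (IL15RA) with the adjusted p and no minimum fold. That rule also gave 1 in each line set at 200 ng/ml and 2 between the untreated lines. In either direction it called 9.55% of all genes at 200 ng/ml over both sets. It called 7.18% in set A-C at 200 ng/ml, 5.84% in set D-F and 46.4% between the untreated lines. Without the line set in the fit, 0 of the listed pathway genes were called in place of 1. Leaving out 1 library at a time gave 0 to 1 members called between the untreated lines and 1 to 2 listed genes called. The IL15RA log2 fold change at 200 ng/ml then lay between 0.57 and 0.73, and the shift in share lay between -5.30 and 30.6 percentage points for IL15-204, negative without A1. Uncalled values changed sign as follows. On limma with pseudocounts of 0.1 and 1, the untreated IL7 difference was 0.21 and 0.14, and IL15 at 20 ng/ml in set D-F was 0.19 and 0.17, each as log2. Without A1 and E2, chosen after the values were seen, IL15 was 0.30 at 20 ng/ml in set D-F and -0.022 at 200 against 20 ng/ml. Leaving out single libraries, IL15 ran from -0.19 to 0.96 at 20 ng/ml, from -0.021 to 0.88 at 200 against 20 ng/ml, and from -1.52 to 0.30 at 20 ng/ml in set D-F. The difference between sets at 200 ng/ml ran from -0.11 to 0.20 for IL15RA, and the untreated IL18BP difference from -0.12 to 0.23. The cause was not tested. Deviations of same-numbered replicates correlated between -0.05 and 0.06, so no strong shared deviation was seen. That cannot decide whether libraries of the same number were cultured or handled together. With the replicate block, IL15RA at 200 ng/ml was 0.66 (edgeR adjusted p = 0.0183) and IL15 between untreated lines 2.48 (adjusted p = 0.0265), and no 2-fold call of a member changed, while IL15RA lost the adjusted p in each set alone (0.0850 and 0.0646) and between untreated lines (0.0541). The block gave 282 genes higher and 85 lower at 200 ng/ml, where 316 and 110 were called without it. Without the line set in the fit 92 and 4 were called, and with an unadjusted p and 2-fold 529 and 317. At 20 ng/ml the corresponding counts were 174 and 31 with the block, 192 and 37 without it, 66 and 2 without the line set and 412 and 237 by the unadjusted p. With 2 replicates per group and 9 to 39 counts, the IL7 interval at 200 ng/ml ran from 0.937-fold to 2.64-fold.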
